A study of Mus musculus with 8 samples.

Results

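Genes that make cholesterol, sense it and move it across the gut wall were compared in the jejunum, a middle stretch of the small bowel, between 2 inbred mouse strains. The members are 32 genes, chosen from a list of mevalonate, sterol regulator and cholesterol transport genes, among 56941 gene identifiers in the count table. All 32 were found under 1 identifier each and all 32 passed the filter on low counts. The groups were naive C57BL/6 mice (B6, replicates 2, 3, 4 and 5) and naive C3H/HeJ mice (C3H, replicates 1, 3, 4 and 5), with 4 RNA sequencing libraries each. The labels give an age of 6 to 8 weeks and shared cages for 8 weeks or more before tissue was taken, and do not say at which point the age was taken; the age at harvest is not stated. Per the labels, no animal was treated, and all libraries belong to batch 1. Sex is not given in the labels, and whether each library came from its own animal is not stated, so each p-value reflects only how far these libraries vary, which may be technical. The series title concerns food anaphylaxis and allergen uptake, and no purpose is stated for the sterol genes.

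Animal cells build cholesterol from acetyl-CoA: the mevalonate steps make isoprene units, these are joined into squalene, and squalene is closed to lanosterol and trimmed to cholesterol. When sterol in the endoplasmic reticulum is low, SCAP carries the membrane-bound factor SREBP2 to the Golgi, where it is cut, and its free part switches on the genes of the pathway; INSIG proteins hold the complex back when sterol is high. When sterol is plentiful, its oxidised forms activate the LXR receptors, which switch on genes that export or limit cholesterol. The enterocyte, the absorptive cell of the villus, takes sterol from the gut through NPC1L1, esterifies it with SOAT2, returns part of it to the lumen through the ABCG5 and ABCG8 pair, and passes part to high-density lipoprotein through ABCA1.

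The sequences before the start sites are shown for the SREBP2-responsive genes that differed between the strains and have a window in the RefSeq table, for the uptake gene Npc1l1, for the exporter gene Abca1, and for the gap between Abcg5 and Abcg8, which are read away from each other. They are RefSeq sequences of build GRCm38.p6, from the B6 reference strain, 5′ to 3′ in the direction of the gene (of Abcg8 for the gap), the 250 bases before the start for each of the first 6 genes and the 109 bases between both starts for the pair. Capitals mark matches, on either strand, to TCACNCCAC (a form of the sterol response element bound by SREBP), CCAAT (the NF-Y box) and GGGCGG (the Sp1 box). NF-Y and Sp1 are factors known to work beside SREBP. A match that runs past the start is cut there.
Hmgcs1 (chr13:119690101-119690350, plus strand): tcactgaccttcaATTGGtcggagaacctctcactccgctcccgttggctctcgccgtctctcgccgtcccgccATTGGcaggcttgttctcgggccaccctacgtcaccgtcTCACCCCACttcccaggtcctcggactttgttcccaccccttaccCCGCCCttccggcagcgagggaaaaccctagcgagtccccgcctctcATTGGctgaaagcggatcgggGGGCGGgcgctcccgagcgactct
Sc5d (chr9:42264301-42264550, minus strand): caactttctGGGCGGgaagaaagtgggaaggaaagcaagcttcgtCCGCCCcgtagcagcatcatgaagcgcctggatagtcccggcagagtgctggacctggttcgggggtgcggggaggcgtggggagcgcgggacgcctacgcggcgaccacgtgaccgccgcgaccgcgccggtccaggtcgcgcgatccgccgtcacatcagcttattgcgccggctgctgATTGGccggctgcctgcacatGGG
Tm7sf2 (chr19:6067851-6068100, minus strand): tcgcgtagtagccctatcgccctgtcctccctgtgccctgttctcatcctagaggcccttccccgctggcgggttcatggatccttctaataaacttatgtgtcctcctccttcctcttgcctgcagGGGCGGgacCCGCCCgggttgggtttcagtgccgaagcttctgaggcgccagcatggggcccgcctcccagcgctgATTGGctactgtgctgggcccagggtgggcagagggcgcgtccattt
Nsdhl (chrX:72918271-72918520, plus strand): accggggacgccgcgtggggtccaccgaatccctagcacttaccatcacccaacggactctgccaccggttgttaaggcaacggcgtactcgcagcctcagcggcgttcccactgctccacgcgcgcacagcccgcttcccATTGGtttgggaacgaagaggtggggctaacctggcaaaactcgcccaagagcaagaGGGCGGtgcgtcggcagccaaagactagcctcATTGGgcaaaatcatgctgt
Npc1l1 (chr11:6230246-6230495, minus strand): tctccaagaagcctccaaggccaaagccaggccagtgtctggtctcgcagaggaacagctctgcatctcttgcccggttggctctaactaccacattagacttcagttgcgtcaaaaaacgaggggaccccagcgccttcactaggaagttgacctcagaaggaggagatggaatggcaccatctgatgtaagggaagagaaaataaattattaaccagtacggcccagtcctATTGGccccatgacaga
Abca1 (chr4:53159896-53160145, minus strand): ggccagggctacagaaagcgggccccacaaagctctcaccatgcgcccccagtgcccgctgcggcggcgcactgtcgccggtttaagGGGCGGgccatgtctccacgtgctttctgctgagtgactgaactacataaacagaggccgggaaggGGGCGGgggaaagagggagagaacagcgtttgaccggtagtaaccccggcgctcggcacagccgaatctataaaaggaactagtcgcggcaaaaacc
Abcg5 to Abcg8 (chr17:84683012-84683120, plus strand): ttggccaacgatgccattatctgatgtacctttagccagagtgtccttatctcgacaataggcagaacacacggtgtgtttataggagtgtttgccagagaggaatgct
Of the 4 genes Hmgcs1, Sc5d, Tm7sf2 and Nsdhl, only Hmgcs1 held TCACNCCAC, 137 bases before its start, while all 4 held CCAAT, at 24 bases before the start in Sc5d, 47 in Tm7sf2, 109 and 20 in Nsdhl, and 237, 176 and 45 in Hmgcs1. Npc1l1 held CCAAT 17 bases before its start. Abca1 held GGGCGG at 163 and 97 bases before its start and no CCAAT. The 109-base gap held none of these motifs.

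Across the members the CCAAT and GGGCGG boxes were common in the genes that respond to SREBP2. The first listed window of a gene, 250 bases before to 50 after the start, was given for 27 of the 32 members and for 27025 genes in all. Of 17 SREBP2-responsive members with a window, 15 held CCAAT (88.2%, against 37.9% of all genes) and 16 held GGGCGG (94.1%, against 35.9%). The TCACNCCAC form was in 1 of the 17 and in 1.22% of all genes. Among the 10 other members with a window, 6 held CCAAT and 3 held GGGCGG. The strict LXR-type element, AGGTCA given as a direct repeat with 4 free bases between its copies, was in 0 of 27 members and in 3 of 27025 genes. Only exact copies were searched, so looser forms would be missed, and the 0 cannot show that a member such as Abca1 lacks an LXR element. These counts describe letters in a window and were not tested. C3H sequence was not used here.

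As a group, the members differed between strains about as often as other genes. Of 18025 genes tested, 21.4% passed the threshold (an adjusted p under 0.05 in the quasi-likelihood test of edgeR, by Benjamini and Hochberg over all genes), and of the 32 members 7 did, which is 21.9%. Tm7sf2 and Nsdhl rose in C3H (2 members, against 11.3% of all genes higher), and Hmgcs1, Sc5d, Npc1l1, Soat2 and Abca1 fell (5 members, against 10.1% of all genes lower). The strains did not overlap for 8 members, these 7 and Scap, which is near the 24.4% of all tested genes with no overlap. The median log2 fold change, C3H over B6, was -0.07 over the members and 0.03 over all tested genes. The other 25 members all differed by less than 1.5-fold in their fitted value, and Abca1 was the one member with a fitted change of at least 2-fold.

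**Figure D1:**
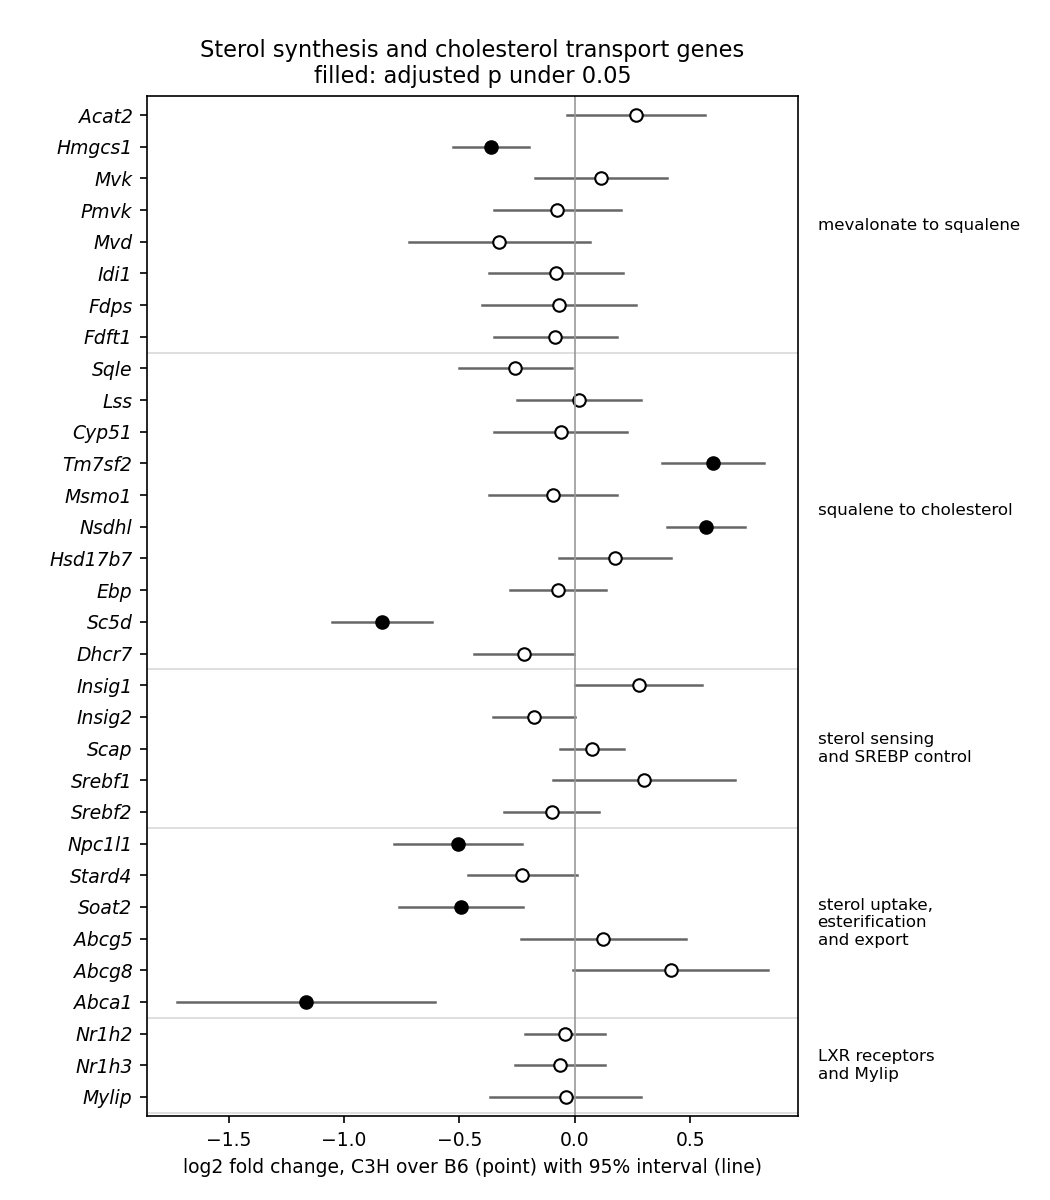
Log2 fold change of each of the 32 members, C3H over B6, with its 95% interval, grouped by role (4 libraries per strain). Filled points passed an adjusted p of 0.05: 2 lie to the right of 0 and 5 to the left, in the 2 synthesis groups and the transport group, while the 5 sensing genes and the LXR group are open.

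Levels were set side by side as CPM, the reads of a gene per 1000000 reads counted (on scaled library sizes), per kilobase of exon, with exon lengths from GENCODE M21. Npc1l1 was the most abundant member in B6 at 296 ± 31.5 (SD, n = 4), followed by Soat2 (122 ± 11.2), Abcg5 (111 ± 12.3) and Abcg8 (71.5 ± 10.3). Soat2 and Abcg5 did not differ beyond their spread. Stard4 (33.7 ± 4.73) and Sc5d (28.5 ± 2.18) came next, and the other synthesis enzymes lay lower, from Ebp (23.6 ± 2.13) and Hmgcs1 (22.6 ± 1.29) to Lss (1.45 ± 0.200). The lengths join all annotated exons of a gene, 10787 bases for Lss, so the order depends on them. As CPM alone, Lss was at 15.7 in B6 and Mvd lower, at 8.28. In C3H, Npc1l1 was again highest (209 ± 24.8), and Abcg5 (121 ± 28.4), Abcg8 (95.3 ± 26.2) and Soat2 (86.7 ± 13.9) overlapped in their spread. In the B6 libraries these 4 genes and Stard4 had higher mean levels than every synthesis enzyme among the members.

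In the first arm of the pathway, from acetyl-CoA to squalene, 1 of 8 genes changed. Hmgcs1 (ENSMUSG00000093930, chromosome 13) makes HMG-CoA, the unit that is then reduced to mevalonate. Its CPM values were 109, 108, 99.8 and 97.6 in B6 2, 3, 4 and 5, and 82.1, 83.0, 80.6 and 77.0 in C3H 1, 3, 4 and 5. Every B6 library lay above every C3H library, and the C3H libraries were close to each other. The level fell 1.29-fold (log2 fold change -0.36, standard error 0.07, adjusted p = 0.00499). The call ended with library totals as scaling (adjusted p = 0.0620) and with libraries scaled to enterocyte markers (log2 fold change -0.28, adjusted p = 0.324). An annotated antisense gene overlaps 557 bases of the Hmgcs1 exons, and the strand setting of the counting is not given in the sources used here, so reads of the pair may not be told apart.

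The other 7 genes of this arm did not pass. Fdps, which makes farnesyl diphosphate, the branch point toward sterols and protein lipids, had 26.0, 37.9, 22.8 and 31.3 CPM in B6 and 33.2, 26.2, 28.3 and 24.7 in C3H, a log2 fold change of -0.07 with a standard error of 0.15. The strains overlapped, and the highest and the lowest value both came from B6. The log2 fold change was -0.08 for Fdft1, which joins farnesyl units into squalene, -0.08 for the isomerase gene Idi1, -0.33 for the decarboxylase gene Mvd, and -0.08 and 0.11 for the kinase genes Pmvk and Mvk. Acat2, the thiolase that opens the pathway, was at 0.27 (adjusted p = 0.205) and passed without B6 3 (log2 fold change 0.40, adjusted p = 0.0426). Fdft1 overlaps the abundant protease gene Ctsb on the opposite strand by 774 bases, and Fdps overlaps a second gene model on its own strand by 1124, so both values are uncertain.

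In the second arm, from squalene to cholesterol, 3 of 10 genes changed, 2 up and 1 down. Sc5d (ENSMUSG00000032018, chromosome 9) encodes a sterol desaturase that acts before DHCR7. It had 129, 143, 152 and 132 CPM in B6 and 68.4, 73.1, 81.4 and 88.4 in C3H. The lowest B6 library was well above the highest C3H library. Sc5d fell 1.78-fold (log2 fold change -0.84, standard error 0.10, adjusted p = 0.000118) and stayed below the threshold under all 21 alternatives, with log2 fold changes from -0.93 to -0.78. Dhcr7, the reductase that acts after SC5D, had 43.03, 56.3, 41.6 and 47.2 CPM in B6 and 40.6, 39.0, 40.4 and 41.7 in C3H, a log2 fold change of -0.22 with a standard error of 0.10 (adjusted p = 0.148), and its strains overlapped by a small margin.

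Nsdhl and Tm7sf2 act in the removal of methyl groups and the reduction of the ring of lanosterol, and both were higher in C3H. Nsdhl (ENSMUSG00000031349, X chromosome), the dehydrogenase of the C-4 demethylation complex, had 16.2, 19.8, 17.7 and 18.1 CPM in B6 and 26.2, 26.5, 26.0 and 27.8 in C3H. The C3H libraries spanned less than the B6 libraries and lay above all of them. Nsdhl rose 1.48-fold (log2 fold change 0.57, standard error 0.08, adjusted p = 0.000298). Tm7sf2 (ENSMUSG00000024799, chromosome 19), a sterol C14-reductase, had 9.54, 11.5, 11.0 and 11.7 CPM in B6 and 15.2, 15.3, 17.5 and 18.4 in C3H, again with no overlap. It rose 1.51-fold (log2 fold change 0.60, standard error 0.10, adjusted p = 0.00130). Tm7sf2 shares 532 exon bases with Vps51 on the same strand, so its value is uncertain.

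The partners of NSDHL in the same complex did not pass. Msmo1, the methyl oxidase, had 66.2 to 95.5 CPM in B6 and 63.1 to 82.3 in C3H (log2 fold change -0.09), and Hsd17b7, the ketoreductase, 15.0 to 21.3 and 19.9 to 23.4 (0.17). Cyp51, the lanosterol demethylase, was at -0.06, the isomerase gene Ebp at -0.07 and the cyclase gene Lss at 0.02. Sqle, the squalene epoxidase and a rate-limiting step, was at -0.26 (adjusted p = 0.130) and passed without B6 4 (log2 fold change -0.35, adjusted p = 0.0321). The 3 genes that changed in this arm thus did so in different directions, while the fitted values of the other 7 lay between -0.26 and 0.17.

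None of the 5 genes that sense sterol or control SREBP passed the threshold with all 8 libraries in edgeR, DESeq2 or limma-voom. In edgeR 1 of the 5, Insig1, had an unadjusted p under 0.05 (adjusted p = 0.151). Srebf2, which encodes SREBP2, had 93.3, 113, 87.8 and 98.6 CPM in B6 and 99.0, 91.3, 86.6 and 89.4 in C3H, and the 95% interval of its log2 fold change ran from -0.31 to 0.11. Scap had 33.4 to 34.0 CPM in B6 and 35.2 to 35.9 in C3H: the strains did not overlap, and the difference was 5.23% (adjusted p = 0.464). Insig1, a target of SREBP2 that also restrains it, had 67.5, 76.7, 78.9 and 57.9 CPM in B6 and 81.8, 78.2, 76.9 and 104 in C3H (log2 fold change 0.28). Insig2, the INSIG gene not driven by SREBP2, was at -0.18 (adjusted p = 0.156). Srebf1, which encodes the fatty acid regulator SREBP1, had 67.5, 85.9, 125 and 66.6 CPM in B6 and 100.04, 105, 101 and 118.5 in C3H. B6 4 alone lay above all of the C3H libraries, and without it Srebf1 passed (log2 fold change 0.53, adjusted p = 0.00873, against 0.30 and 0.278 with all libraries).

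Among the 6 genes of sterol uptake, esterification and export, Npc1l1, Soat2 and Abca1 fell in C3H and 3 did not pass. Npc1l1 (ENSMUSG00000020447, chromosome 11), the brush border sterol transporter, had 1237, 1311, 1526 and 1219.5 CPM in B6 and 784, 910, 1017 and 1017 in C3H. The strains did not overlap, and C3H 1 was the lowest library. Npc1l1 fell 1.42-fold, with means of 1323 ± 141 and 932 ± 111 CPM (SD, n = 4 per strain), a log2 fold change of -0.51 and a standard error of 0.13 (adjusted p = 0.0140), and the call ended without C3H 3 (adjusted p = 0.0559). Soat2 (ENSMUSG00000023045, chromosome 15), which esterifies the absorbed sterol for packing into chylomicrons, had 250, 306, 268 and 256 CPM in B6 and 152, 185, 211 and 220.1 in C3H, with no overlap and C3H 1 again lowest. Soat2 fell 1.41-fold, from 270.1 ± 24.9 to 192 ± 30.7 CPM on average (log2 fold change -0.49, standard error 0.12, adjusted p = 0.0136). Stard4, a carrier of sterol between membranes and a target of SREBP2, was at -0.23 (158 to 222 CPM in B6 and 147 to 172 in C3H, adjusted p = 0.165).

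The export genes differed from each other. Abca1 (ENSMUSG00000015243, chromosome 4), the exporter toward lipoproteins, had 83.0, 58.9, 111 and 91.9 CPM in B6 and 21.5, 37.3, 53.4 and 41.8 in C3H. The strains did not overlap, although B6 3 and C3H 4 were close. Abca1 fell 2.24-fold (log2 fold change -1.17, standard error 0.25, adjusted p = 0.00689) and passed under all 21 alternatives, with log2 fold changes from -1.45 to -0.97. Abcg5, which encodes a subunit of the exporter back to the gut lumen, had 275, 270.1, 335 and 325 CPM in B6 and 224, 317, 373 and 399 in C3H, so C3H held both the lowest and the highest libraries (log2 fold change 0.12, 95% interval -0.23 to 0.48). Abcg8, its partner, had 226, 244, 297 and 304 CPM in B6 and 220.2, 360, 402 and 447 in C3H: C3H 1 lay below all B6 libraries and the other C3H libraries above them (log2 fold change 0.42, standard error 0.19, adjusted p = 0.159). Without C3H 1, Abcg8 passed (log2 fold change 0.58, adjusted p = 0.00906). Abcg5 and Abcg8 share 82 exon bases on opposite strands.

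**Figure D2:**
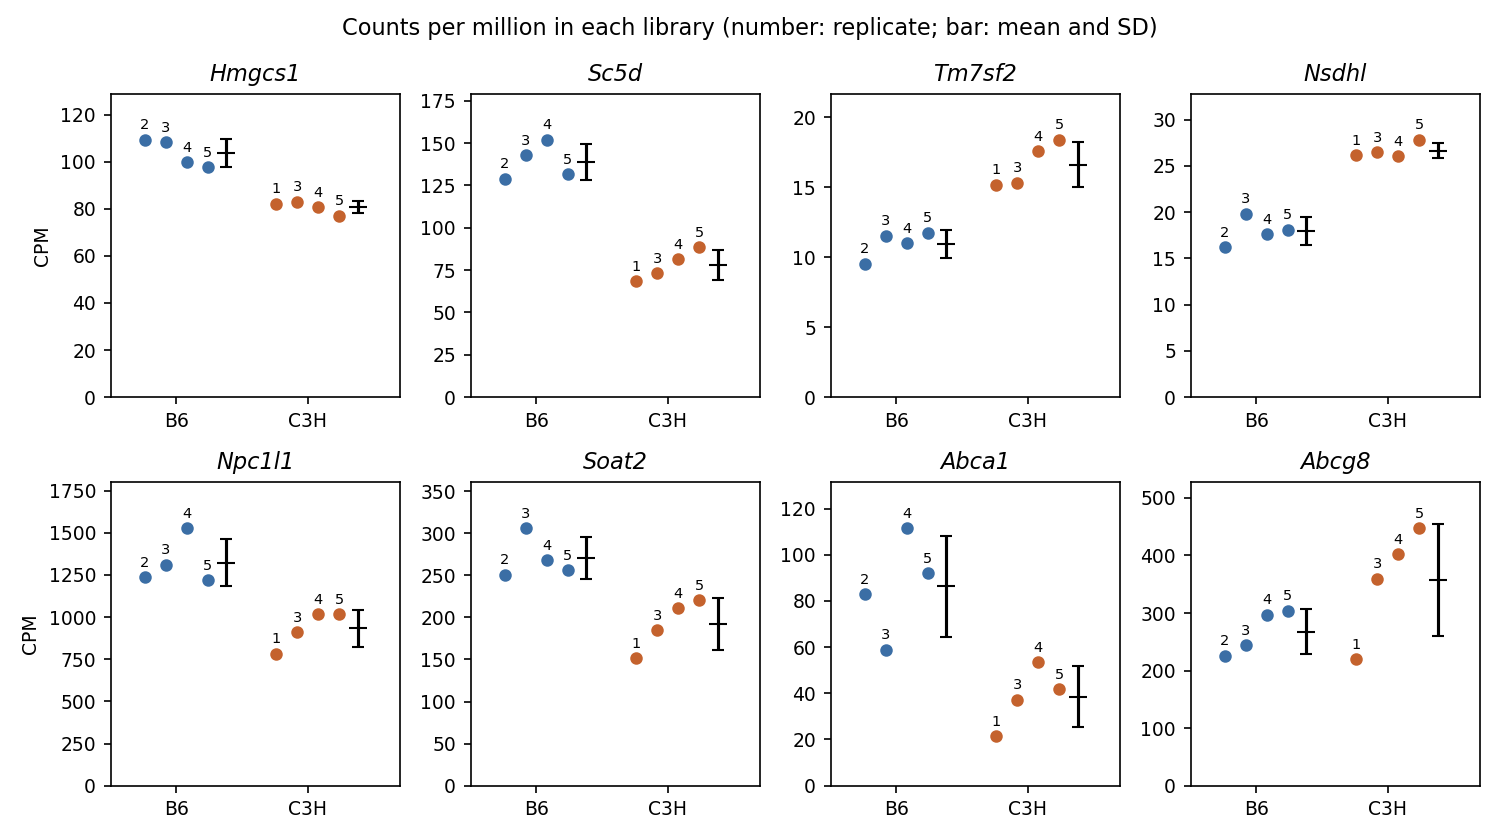
CPM of 8 members in each library, with replicate numbers, and the mean and SD of each strain (n = 4), on axes that start at 0. The strains separate for all genes shown except Abcg8, where C3H 1 (220.2 CPM) lies below the B6 libraries and C3H 5 reaches 447 CPM.

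Within C3H, several transport genes had their lowest and highest values in the same libraries as markers of the absorptive cell. The 12 enterocyte markers summed to 79309 to 98681 CPM in B6, and to 67300, 76762, 92741 and 106280 CPM in C3H 1, 3, 4 and 5. Abcg5, Abcg8, Soat2 and Npc1l1 were lowest in C3H 1 and highest in C3H 5 as well, although C3H 4 and C3H 5 had nearly the same Npc1l1 level. Of the 12 markers 0 passed between strains in edgeR (0 at an unadjusted p under 0.05, 2 by DESeq2 and 0 by limma-voom), with a median log2 fold change of -0.08, and none was at 0 in a library. The 11 crypt and proliferation markers ran the other way, at 913 CPM in C3H 1 and 526 in C3H 5, and 0 of them passed in edgeR (1 at an unadjusted p under 0.05, 1 by DESeq2 and 1 by limma-voom). In whole tissue, fewer cells of a type and less RNA per cell cannot be told apart.

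The comparison was repeated with libraries scaled to the enterocyte markers, an alternative chosen after seeing the data, under which 13.3% of all genes passed (8.00% higher and 5.30% lower) and the median of all genes was 0.10. Npc1l1 (log2 fold change -0.45, adjusted p = 0.00364), Soat2 (-0.45, adjusted p = 0.0114), Abca1 (-1.13, adjusted p = 0.000856) and Sc5d (-0.78, adjusted p = 0.000183) were still lower in C3H. Nsdhl (0.64) and Tm7sf2 (0.66) were still higher, Abcg8 passed (0.44, adjusted p = 0.0352) and Hmgcs1 did not. Members called numbered 7 again, 3 higher and 4 lower.

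Other cell and position markers that moved with strain are given for these results. All 8 T cell markers were lower in C3H (summed level 418 to 452 CPM in B6 and 145 to 238 in C3H), and 2 of 8 macrophage markers were higher (208 to 264 and 258 to 290.3 CPM); none of either list was at 0. Of 6 tested markers of the distal small intestine 3 were lower and 1 higher (summed 1942 to 2252 and 1378 to 1859 CPM), with the ileal marker Fabp6 at 0 to 8 counts per library. Of 7 proximal markers 2 were higher in C3H (7024 to 8608 and 6055 to 9199 CPM). Clock genes, which could follow the hour of harvest, gave 1 higher and 2 lower of 13 in edgeR. In that list 7 had an unadjusted p under 0.05, and 5 passed by DESeq2 and 5 by limma-voom. Arntl (log2 fold change -0.97) and Nr1d1 (-0.35) fell and Per3 (0.82) rose. The summed level (791 to 1002 and 817 to 1038 CPM) thus mixes genes that moved in opposite directions. The mean log2 CPM of the list was 5.61 in B6 4, against 5.11 to 5.19 in the other B6 libraries and 5.31 to 5.62 in C3H. B6 4 is also the library without which Srebf1 passed. The part of these cells and states in the sterol results was not tested.

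Neither LXR receptor gene passed, nor did the target Mylip, in edgeR, DESeq2 or limma-voom (0 of 3 at an unadjusted p under 0.05 in edgeR). Nr1h2, the widely expressed LXR, had 84.3, 96.7, 90.8 and 91.0 CPM in B6 and 81.1, 92.1, 90.9 and 88.5 in C3H (log2 fold change -0.04, 95% interval -0.21 to 0.13). Nr1h3, the LXR of gut, liver and macrophages, had 62.9, 71.8, 61.4 and 64.1 CPM in B6 and 58.9, 58.9, 60.8 and 70.3 in C3H (-0.06, interval -0.26 to 0.13). Mylip, an LXR target that encodes a ubiquitin ligase, had 3.85 to 5.56 CPM in B6 and 4.08 to 5.43 in C3H (-0.04, interval -0.37 to 0.29).

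Set side by side, neither the SREBP2-responsive nor the LXR-responsive genes moved in 1 direction. The 21 SREBP2-responsive members are the genes of both synthesis arms with Insig1, Srebf2 and Stard4. Npc1l1, which fell, is not on this list. Of the 21, 2 rose and 2 fell, near the 21.4% of all genes called (11.3% higher and 10.1% lower). Their median log2 fold change was -0.08 (0.03 over all tested genes), with 14 values below 0 and 7 above. With scaling to the enterocyte markers their median was 0.00, and that of all genes moved to 0.10. In the 4 libraries poorest in pancreatic transcripts the 2 medians were 0.09 and 0.02. Of 5 LXR-responsive members (Abca1, Abcg5, Abcg8, Mylip and Srebf1) 1 fell and 0 rose in edgeR with all 8 libraries, with a median of 0.12 (-0.11 in those 4 libraries) and a range from -1.17 to 0.42. Abcg8 and Srebf1 had passed upward with 1 library left out, as given above. Both lists were chosen with earlier results of these data known.

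The SREBP2-responsive genes also varied from library to library within a strain. The mean log2 CPM of the 21 SREBP2-responsive members was 4.91, 5.15, 4.88 and 4.95 in B6 2, 3, 4 and 5, and 5.02, 4.88, 4.96 and 4.90 in C3H 1, 3, 4 and 5. B6 3 was the highest B6 library for 12 of the 21 genes and the lowest for 0, while B6 4 was the lowest for 10 and the highest for 5. In C3H, replicate 1 was highest for 10 and lowest for 3, and replicate 5 was lowest for 9 and highest for 6. The same mean over the 5 LXR-responsive members was 6.07, 6.16, 6.55 and 6.25 in B6 and 5.77, 6.24, 6.34 and 6.35 in C3H. C3H 1 was lowest for 4 of the 5 LXR-responsive genes, and B6 4 was highest for 3 of the 5. Among synthesis genes C3H 1 was the highest C3H library for 5 of the 8 mevalonate genes and lowest for 0, but highest for 3 and lowest for 3 of the 10 genes from squalene to cholesterol. With 4 libraries per strain no correlation is given.

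**Figure D3:**
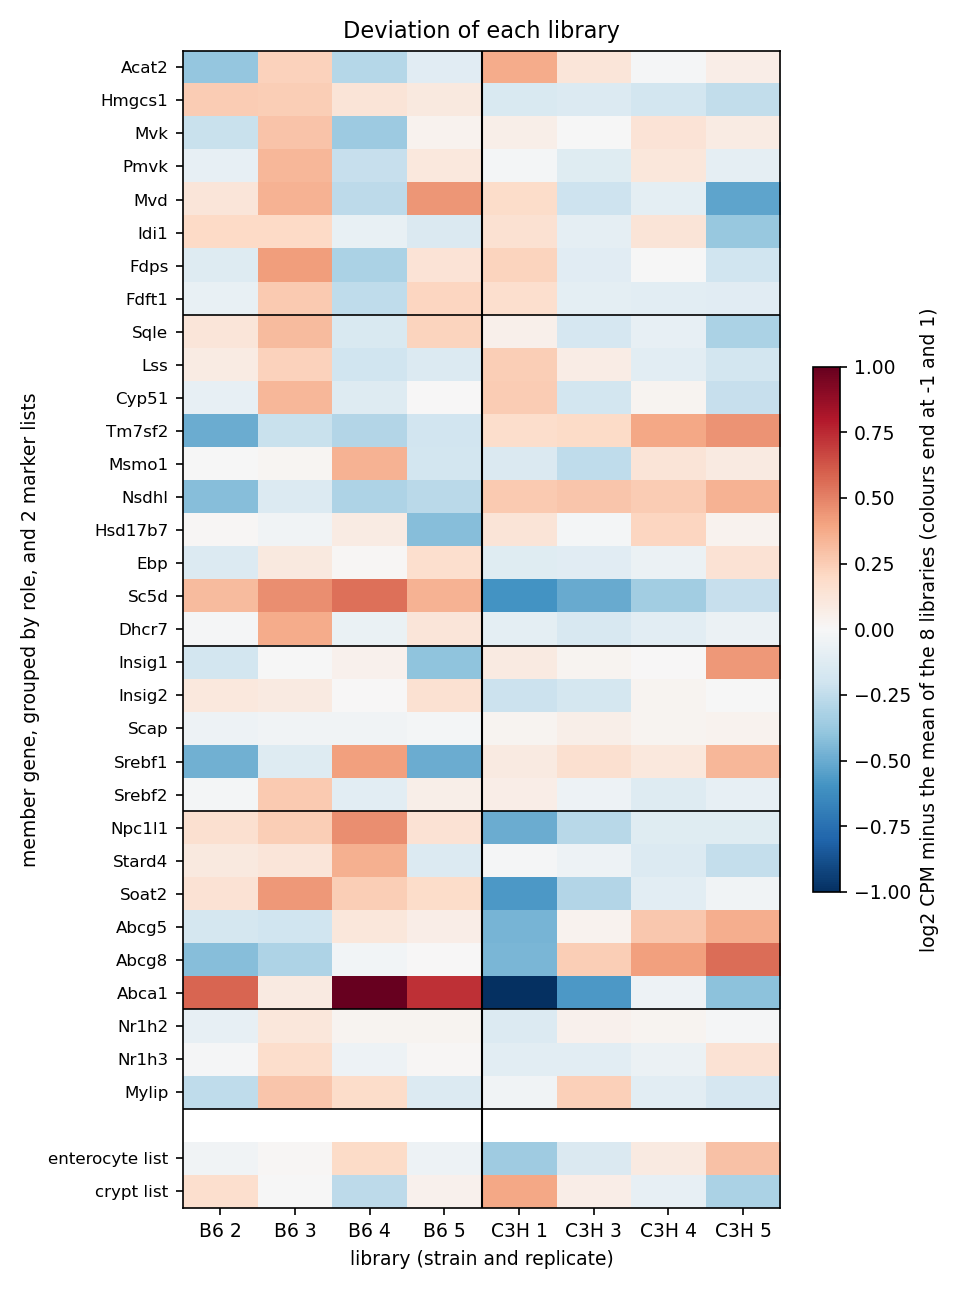
Log2 CPM of each member in each library minus its mean over the 8 libraries (colour, ending at -1 and 1), grouped by role, with the mean of the enterocyte and crypt marker lists below. Sc5d, Npc1l1, Soat2 and Abca1 are blue or near white across C3H, Nsdhl and Tm7sf2 are red, and most mevalonate genes are red in B6 3 and C3H 1 in place of following the strain.

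Among 74 further genes of sterol and fatty acid metabolism, in 6 lists, 19 passed in edgeR, 10 higher and 9 lower in C3H, of 73 tested, to be read beside the 21.4% of all genes called (11.3% higher and 10.1% lower). None of 9 genes of the isoprenoid branches, such as those for ubiquinone and dolichol, passed in edgeR with all 8 libraries, in DESeq2 or in limma-voom (adjusted p from 0.124 in edgeR, 1 gene at an unadjusted p under 0.05). Of 16 genes of cholesterol traffic inside the cell 3 rose and 0 fell in that fit. Nceh1, a hydrolase of cholesteryl esters, rose 2.17-fold, from 16.2 ± 0.763 CPM in B6 to 35.2 ± 4.99 in C3H (SD, n = 4 per strain, adjusted p = 1.62e-05), Stard5, a sterol carrier, 1.80-fold and Lipa, the lysosomal lipase for cholesteryl esters, 1.60-fold (adjusted p = 0.0156, lost without B6 2 at 0.0506). Soat1, which like Soat2 makes such esters and is named here after its values were seen, did not pass (23.3 ± 0.758 and 23.9 ± 1.98 CPM, log2 fold change 0.03, adjusted p = 0.805).

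Genes that cut SREBP or control the turnover of sterol sensors gave 1 higher and 2 lower of 12. Erlin2 and the ligase gene Rnf145 fell by 0.28 and 0.21 on the log2 scale (adjusted p = 0.0396 and 0.0493). Leaving out a single library ended the Erlin2 call for replicates 2, 3 and 4 of B6 and for 1, 3 and 4 of C3H (adjusted p up to 0.106). It ended the Rnf145 call for replicates 2, 3 and 5 of B6 and for 3, 4 and 5 of C3H (up to 0.144).

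Fatty acid synthesis genes under SREBP1 moved both ways, 3 of 14 higher and 2 lower. Me1, the malic enzyme that supplies NADPH, rose 3.32-fold (27.3 ± 4.01 to 90.6 ± 23.6 CPM; adjusted p = 3.33e-05), Acss2, which makes acetyl-CoA from acetate, 1.54-fold and the elongase gene Elovl5 1.34-fold (lost with scaling to enterocyte markers, adjusted p = 0.116, and on the 6 libraries that share replicate numbers, 0.0520), while the ligase gene Acsl3 fell 1.72-fold and the elongase gene Elovl6, named after its values were seen, 1.30-fold. Fasn, the fatty acid synthase, did not pass and was highest in C3H 3 (234 CPM, against 47.4 to 106 in B6 and 50.8 to 56.7 in the other C3H libraries). C3H 3 also held the most adipose marker RNA, 400 CPM summed over 7 markers against 135 to 185 in the other 7 libraries, and its part in the Fasn value was not tested. Adipoq, Plin1, Lep, Cfd and Retn were at 0 in C3H 1. Fasn was named after its values were seen.

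Of 10 further LXR targets 3 fell and 0 rose in edgeR. Apoe, the apolipoprotein that carries cholesterol released by macrophages and other cells, had 185, 236, 219 and 294 CPM in B6 2, 3, 4 and 5 and 62.1, 76.6, 54.7 and 59.8 in C3H 1, 3, 4 and 5. Its lowest B6 library lay above the highest C3H library by more than 100 CPM. Apoe fell 3.69-fold, with means of 233.5 ± 45.5 and 63.3 ± 9.39 CPM (SD, n = 4 per strain), a log2 fold change of -1.88 and a standard error of 0.15 (adjusted p = 5.53e-06), and it passed under all 21 alternatives. Scd2, a stearoyl-CoA desaturase, fell 1.66-fold (adjusted p = 0.00143, lost with scaling to enterocyte markers at 0.0757) and Ttc39b 1.29-fold (adjusted p = 0.0343), the latter lost when replicate 2 or 4 of B6, or replicate 1, 3 or 5 of C3H, was left out (up to 0.0872). Lpcat3 and Abcg1, both direct LXR targets, were at -0.03 and -0.04 and are named after their values were seen. Lpl (log2 fold change 1.72, adjusted p = 0.0898) and Scd1 (-0.23, adjusted p = 0.916), also named so, did not pass. Both were highest in C3H 3, at 84.5 and 270 CPM. Lpl had 5.05 to 12.4 CPM in B6 and 10.2 to 13.2 in the other C3H libraries, and Scd1 15.4 to 150 and 2.47 to 15.3. C3H 3 held the most adipose marker RNA, and its part in these values was not tested. Among 12 tested oxysterol and bile acid genes 3 rose and 2 fell. Nr1h4, the bile acid receptor FXR, rose 2.64-fold (16.1 ± 2.29 to 42.5 ± 6.18 CPM; adjusted p = 1.74e-05) and its target Nr0b2 rose 3.04-fold, whereas Slc51b, a subunit of the basolateral bile acid exporter and also a target of FXR, fell 2.11-fold. Its partner subunit gene Slc51a, named after its values were seen, fell 1.40-fold. Ch25h, which makes an oxysterol, rose 2.71-fold from a low level of 0.334 to 0.895 CPM, on 13 to 69 counts per library.

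**Figure D4:**
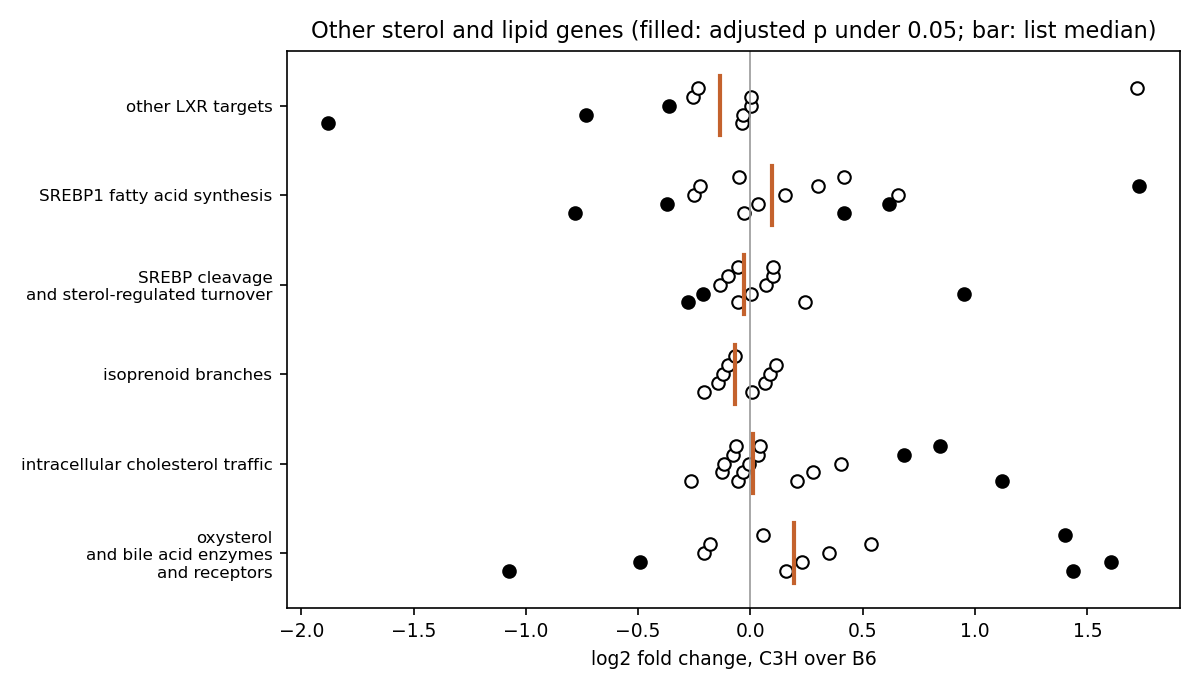
Log2 fold change, C3H over B6, of each tested gene in the 6 further lists, with the list median as a bar; filled points passed an adjusted p of 0.05. The isoprenoid list has only open points between -0.21 and 0.11, and the list medians lie between -0.13 and 0.19.

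The libraries held 37205896 to 58251332 counts in total, and each member had at least 145 counts in every library. Within strains no pair of libraries agreed at the level of counting noise (chi-square over degrees of freedom 23.2 to 89.8). Pancreatic marker RNA was uneven, at 3369 and 1498 CPM summed over 12 markers in C3H 3 and C3H 5 and 32.1 to 297 in the other 6 libraries; Prss2, Cela2a, Cela3b, Pnlip and Amy2a5 had 0 counts in at least 1 library, and 1 of 11 tested markers passed. In the 4 libraries poorest in it (B6 4, B6 5, C3H 1 and C3H 4), 2 members passed, Sc5d and Abca1, where 9.02% of all genes did. Reads of both strains were counted against a reference built from C57BL/6J, and the part of sequence differences in any value was not tested.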

How the data were processed

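Jejunal RNA from 8 libraries, 4 per strain, was sequenced with a stranded mRNA kit from 200 ng of RNA of integrity number above 7, per the labels' protocols. The deposited table holds raw read counts per gene; per the submitters' processing notes STAR 2.7.9a, HTSeq 2.0.2 and build GRCm39 were used. Neither annotation release nor strand setting is stated: not given in the sources used here. Symbols and exon lengths came from GENCODE M21 (GRCm38), which named 52000 of 56941 identifiers; promoter sequences came from RefSeq (GRCm38.p6), so no gene coordinates of the counting build are given.

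Samples were grouped by strain from their titles. Counts were fitted over all genes in edgeR 4.0.16 under R 4.3.3 (TMM scaling, factors 0.915 to 1.13; filterByExpr, minimum count 10; quasi-likelihood F test; Benjamini-Hochberg over 18025 genes; threshold 0.05). Standard errors were derived from the fold change and F, and intervals are 95%. CPM uses TMM-scaled library sizes, and for list levels, log2 CPM values (prior count 2) were averaged. The method was tested on simulated data. Lists were described by counts and medians. All members were named, with up to 4 passing genes per further list and the few passing genes beyond these where a count rests on them. The lists do not hold the whole pathway, and some items are not reported here. The members and lists were chosen with earlier results of these data known. Alternatives were other scalings, filters, DESeq2 1.42.0, limma-voom (limma 3.58.1), robust dispersion, a threshold of 0.01, a replicate block, libraries left out and, added after seeing the data, scaling to enterocyte markers.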

Additional observations from a re-analysis of the deposited data

Results flagged for a closer look

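In 98 groups of 4 libraries (49 named genes in 2 strains), a single library stood apart from the others of its strain in 2, by the gap to its neighbour relative to the range of the group; chance gives about 1 in 20, here 4.9. Fdft1, the squalene synthase gene, was at 28.5 CPM in C3H 1 and at 23.5 to 23.7 in the other C3H libraries. Nr0b2 was at 2.40 CPM in B6 4 and at 3.43 to 3.55 in the other B6 libraries.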

How the results depend on the processing

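Among the members, Sc5d and Abca1 passed under all 21 alternatives, Tm7sf2 and Nsdhl under 20, Soat2 under 19, Hmgcs1 under 18 and Npc1l1 under 17, and no call changed direction. With 1 library left out, between 6 and 9 members passed, where 17.1% to 20% of all genes did. LXR-responsive genes higher in C3H numbered 0 to 1 in these fits. Library totals as scaling left 1 SREBP2-responsive gene lower and 5 genes lower in the further lists (9 with TMM). The 4 libraries poorest in pancreatic transcripts gave 0 members higher and 2 lower, with 0 SREBP2-responsive genes higher and 1 lower, and 2 lower in the further lists; that fit has fewer samples. A threshold of 0.01 left 3 members lower and 4 lower in the further lists, where 12.9% of all genes passed in either direction. With libraries scaled to enterocyte markers, added after seeing the data, 1 SREBP2-responsive gene was lower, 1 LXR-responsive gene higher and 4 genes of the further lists lower. The cause of these shifts was not tested.

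The replicate numbers 3, 4 and 5 occur in both strains, and their libraries did not all deviate together (correlations 0.12, 0.14 and -0.04). So few libraries cannot show whether a shared number means a shared day, cage or handling. On these 6 libraries 7 members passed with a replicate block and 8 without, among 2919 and 3212 genes (16.1% and 17.8% of those tested). The member lost with the block was Npc1l1 (log2 fold change -0.47, adjusted p = 0.0692), and Abcg8 passed in both fits. With the block 1 LXR-responsive gene was higher and 5 genes of the further lists were lower. Without the block 1 LXR-responsive gene was higher. Within number 3, and within number 4, each library correlated best with its own number; those of number 5 did not.

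Every member had at least 145 counts in each library; the lowest, Mylip, had 145 to 283, and Ch25h had 13 to 69, so counting error takes a larger part there. The number of libraries, 4 per strain, limits all intervals. Labels name 1 batch, and the hour of harvest is not given.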

Other observations

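The ratio of Abcg8 to Npc1l1, export against uptake at the brush border, was computed after seeing the data and is given with no test. As a ratio of CPM it was 0.182, 0.187, 0.195 and 0.249 in B6 2, 3, 4 and 5 and 0.281, 0.395, 0.396 and 0.440 in C3H 1, 3, 4 and 5. Every C3H library lay above every B6 library, including C3H 1, although its Abcg8 level was below all B6 libraries. Npc1l1 alone already separated the strains and was lowest in C3H 1 (784 CPM), so this ratio is not a separate result. The ratio of Abcg5 to Abcg8, whose products work as a pair, was 1.22, 1.11, 1.13 and 1.07 in B6 and 1.02, 0.882, 0.927 and 0.891 in C3H, again with no overlap. Sc5d over Dhcr7, which act in sequence, ran from 2.54 to 3.65 in B6 and from 1.69 to 2.12 in C3H, where Sc5d alone already separated the strains. Of the 5 ratios computed the other two overlapped between strains: Npc1l1 over Soat2 was 4.29 to 5.70 in B6 and 4.62 to 5.17 in C3H, and Hmgcs1 over Sqle was 3.49 to 4.62 and 3.31 to 3.997.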
